A study of Mus musculus with 24 samples.

Results

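The effect of Wnt7a loss on the mesenchyme of the Müllerian ducts was examined at E14.5 (E for embryonic day) in female mouse embryos. The comparison set 3 Wnt7a-null mesenchyme libraries against 3 wild-type mesenchyme libraries, chosen by their labels, which are 6 of the 24 libraries of the study. Müllerian ducts are the paired embryonic tubes that become the oviducts, uterus and upper vagina, each an epithelial tube wrapped in mesenchyme. Wnt7a is a secreted Wnt ligand made by the duct epithelium, and it is known to signal to the surrounding mesenchyme and to pattern the female tract along its length. By E14.5 the paired ducts have met at the midline, and breakdown of the basement membrane that separates them has begun.

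Each library is a captured region of 1 embryo, so the 3 libraries of a group are 3 embryos. A section of every embryo lay on 1 shared slide, and the mesenchyme beside the ducts (MDM) and the duct epithelium (MDE) were captured separately under laminin staining, which marks basement membrane. The null group was Wnt7anull and the control group Wild Type by genotype; the allele and the strain are not given in the sources used here. For the comparisons with stage and region, 3 null and 3 wild-type MDM libraries from E13.5 embryos, before fusion, and the MDE libraries of the same E14.5 embryos were used. The region is defined by position, and the captured mesenchyme can hold several cell types; in such bulk regions fewer cells of a type and less RNA per cell cannot be told apart.

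In the GeoMx assay, DNA probes hybridised to RNA release barcodes under ultraviolet light, and the barcodes are sequenced and counted. The panel held 20175 probes, all with counts in each of the 6 libraries. None of the probe identifiers matched a gene table (0 of 20175), so probes are given by identifier, and the level of Wnt7a and of markers of mesenchyme, epithelium, muscle, blood and vessels is not reported. Totals were 3707769, 12379529 and 6445840 counts in null replicates 1, 2 and 3, and 1944958, 3183134 and 3625081 in the wild-type replicates, so every null library was deeper than every wild-type library. Levels are CPM (counts relative to the library total after TMM scaling, which equalises the bulk of probes between libraries). Background is the mean of the dimmest 25% of probes, 5044 in all, in the same library, and a level under 1.5 times background is called near background.

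The null mesenchyme showed a flatter profile, in which bright probes were lower and dim probes higher than in wild-type. The share of counts on the brightest 5% of probes (1009 probes) was 18.4%, 13.9% and 15.9% in null replicates 1 to 3 and 26.6%, 25.1% and 25.4% in the wild-type replicates. All null libraries lay below all wild-type libraries, with means of 16.1% ± 2.27 and 25.7% ± 0.769 (SD, n = 3 each) and a difference of −9.61 percentage points. The exact two-sided permutation test over libraries gave p = 0.1, the smallest that 3 against 3 allows. Counting error moved no share by more than 0.0621 points (Wilson 95% interval). The median of these probes stood at 3.00, 2.62 and 2.60 times background in null and 5.46, 5.05 and 5.21 times in wild-type. The 6 E13.5 mesenchyme libraries spanned 17.9% to 26.3%, with the genotypes overlapping.

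The loss of contrast lay mainly in the brighter part of the range, and the dimmer part was nearly flat. Probes were put in 10 classes of equal size by their mean level over the 12 MDM libraries. The median log2 fold change of null over wild-type was 0.15 in the dimmest class, 0.11 in class 5, −0.13 in class 8 and −0.62 in class 10. In class 10 the median level was 3.55 times background in wild-type and 2.20 times in null. In class 5 it was 1.31 and 1.29 times, so that most of the dimmer classes lay near background in both genotypes.

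**Figure D1:**
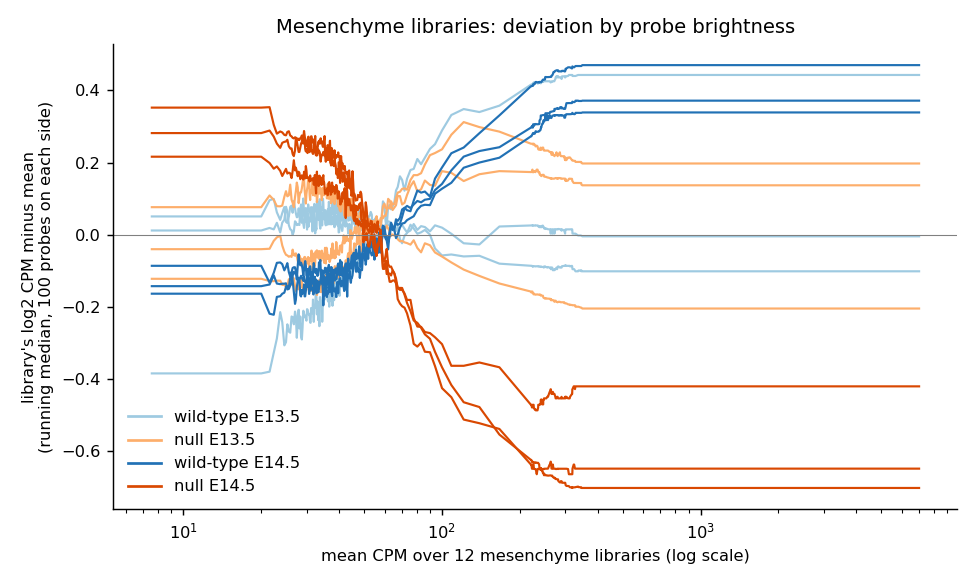
Deviation of each mesenchyme library from the mean of the 12 libraries (log2 CPM, relative to the library total) against probe brightness (mean CPM, log axis), each line the running median in 1 library over 100 probes on each side. The 3 null E14.5 lines lie above 0 among dim probes and are the lowest among bright probes, while the E13.5 genotypes interleave; the flat ends are the edges of the window.

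Because of this slope, a plain comparison mixes a change of contrast with changes of single probes. With TMM scaling, 6001 of 20175 probes differed at an adjusted p under 0.05 (29.7%; edgeR's quasi-likelihood test with Benjamini-Hochberg adjustment), 2443 higher in null (12.1%) and 3558 lower (17.6%). The balance of directions depended on the scaling: the median over all probes, 0.03 by TMM, was 0.13 with upper-quartile scaling, which gave 5155 higher and 2717 lower, and DESeq2 gave 1413 higher and 3492 lower. Leaving out null replicate 2 gave 3966 calls, and leaving out null replicate 3 gave 3975. Depth moved with genotype, and thinned to the lowest total the libraries gave 547 higher and 1812 lower.

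The largest TMM differences among called probes at 1.5 times background or more in both genotypes belonged to 2 bright probes that were lower in null. RTS0081238 measured 99.6, 173 and 77.7 CPM in null replicates 1 to 3 and 711, 620 and 643 CPM in wild-type. The groups were far apart, at 3.86 times background in null and 23.7 times in wild-type, and the log2 fold change was −2.49 (SE 0.314, adjusted p = 1.24e-07). RTS0079241 measured 204, 225 and 156 CPM in null and 910, 745 and 789 CPM in wild-type, with log2 fold change −2.06 (SE 0.313, adjusted p = 2.30e-06). Part of each fall was shared, since the probes nearest to them in brightness had medians of −1.26 and −1.24. Matched for brightness as described below, the differences were −1.09 and −0.56 by lowess and −1.23 and −0.84 by running median. In the E14.5 epithelium the TMM differences of RTS0081238 and RTS0079241 were −1.98 and −1.81. A day earlier they measured 568 ± 144 and 744 ± 243 CPM in null and 610 ± 202 and 814 ± 253 CPM in wild-type mesenchyme (SD, n = 3 each).

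The largest differences on the higher side were smaller. RTS0080140 measured 62.3, 77.8 and 76.9 CPM in null and 46.2, 45.5 and 48.7 CPM in wild-type, with log2 fold change 0.64 (SE 0.132, adjusted p = 0.000197). RTS0080813 measured 76.1, 73.3 and 80.1 CPM in null and 46.7, 45.8 and 54.6 CPM in wild-type, with log2 fold change 0.63 (SE 0.125, adjusted p = 0.000119). In both probes the null and wild-type libraries did not overlap. That was so of 21.7% of all probes for higher levels in null, and of 24.2% for lower levels. With each library's signal contrast as a covariate the calls of all 4 of these probes ended (adjusted p from 0.221 to 0.797). Contrast does not overlap between the genotypes at E14.5, so the slope rests on the spread within the groups. The log2 fold changes were then −1.95 (SE 0.665) for RTS0081238, −1.13 (SE 0.284) for RTS0079241, 0.23 (SE 0.221) for RTS0080140 and 0.68 (SE 0.211) for RTS0080813.

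To find probes that departed from the general flattening, each probe was compared with probes of equal mean level. A lowess curve (a local regression over 0.3 of the probes) of each library's deviation against brightness was removed within the edgeR fit of the 12 MDM libraries. After this matching 3558 of 20175 probes differed (17.6%), 1749 of them higher in null than probes of equal brightness (8.67%) and 1809 lower (8.97%). The median log2 difference was 0.40 for the higher probes and −0.40 for the lower ones, against 0.00 over all probes. By lowess 23 higher and 5 lower probes differed more than 2-fold. That split depends on the trend, since the lowess curve lay below most of the brightest probes. RTS0067780 and RTS0064052, described below, were at 1.77 and 1.78 by lowess but at 0.68 and 0.63 by running median. Of the 2443 probes higher by TMM, 976 remained higher after matching and 1467 were no longer called, and of the 3558 lower, 1496 remained lower, 2018 were no longer called and 44 were higher than their peers.

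**Figure D2:**
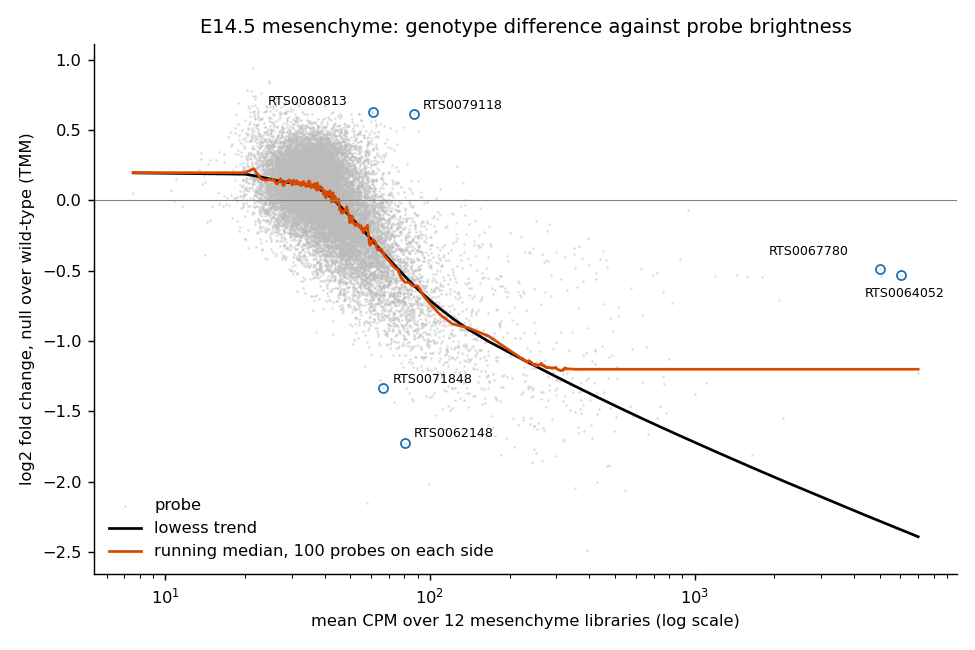
Log2 fold change of null over wild-type (TMM) in E14.5 mesenchyme against mean CPM (log axis), 1 grey point per probe, with the lowess trend in black and the running median over 100 probes on each side in orange. Circles mark 6 named probes, of which RTS0062148 and RTS0071848 lie far below probes of equal brightness and RTS0079118 and RTS0080813 far above; at the bright end the lowess line falls below most points.

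The matched count rested on several libraries. It was 2339 without null replicate 2, 1867 without null replicate 3, and 2360, 2283 and 2333 without wild-type replicates 1, 2 and 3. Thinned to the lowest total the libraries gave 934 probes, 508 higher and 426 lower, and with signal contrast as a covariate 54 probes remained called, 42 higher and 12 lower, of which 47 were among the 3558. Most of the 42 had identifiers in the 1000 numbers from RTS0067000 on, a range picked after the values were seen. That range is frequent among the brightest probes, where the lowess curve lay below most probes.

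Departures from the trend were more frequent among bright probes. In the brightest class 20.1% of probes were higher and 15.7% lower, against 3.57% and 2.92% in the dimmest. The spread of the matched log2 differences (median absolute deviation, scaled to an SD) rose from 0.19 in class 1 to 0.31 in class 10 at E14.5. At E13.5 it fell from 0.19 to 0.14 over the same classes.

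**Figure D3:**
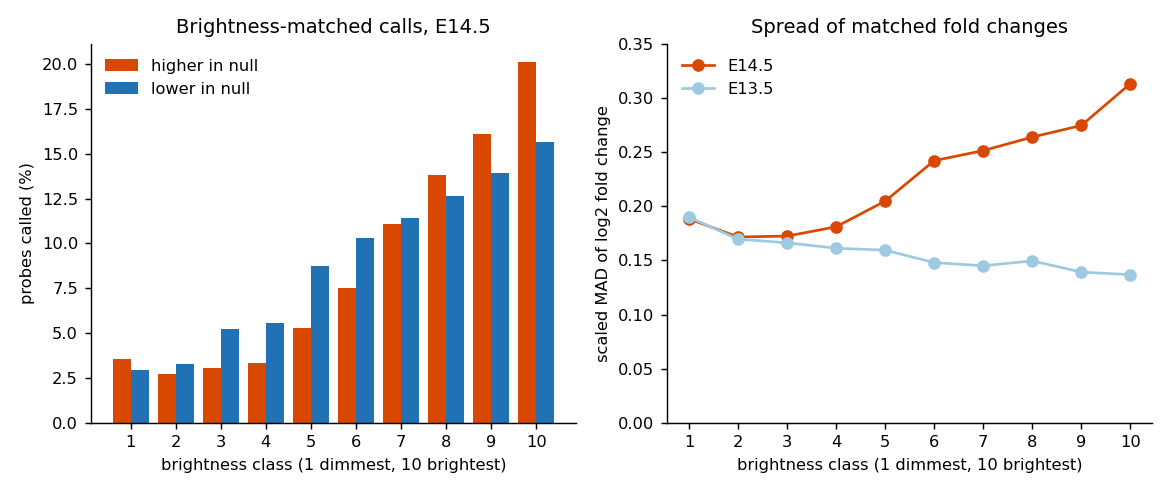
Left, percent of probes called higher (orange) or lower (blue) in null after brightness matching in each of 10 brightness classes; right, the scaled median absolute deviation (MAD) of matched log2 differences per class. Calls reach 20.1% higher and 15.7% lower in class 10, and the E14.5 spread climbs to 0.31 where the E13.5 spread falls to 0.14.

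Most probes lower than their peers were near background in the null mesenchyme, 1429 of 1809 (78.99%), as were 70.8% of all probes. The median level of the 1809 lower probes was 1.87 times background in wild-type and 1.24 times in null, and 1008 of them stood at 1.5 times background or more in wild-type and under it in null. Of all 20175 probes, 3002 did so. The 1749 higher probes had a median of 1.59 times background in wild-type and 1.81 times in null, and 398 of them crossed the 1.5-fold line upward, against 713 of all probes. Below background in both genotypes were 38 higher and 19 lower probes, against 1660 of all 20175 probes.

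RTS0062148 had the lowest p of the probes lower than their peers. It measured 59.7, 51.2 and 53.0 CPM in null replicates 1 to 3 and 205, 172 and 164 CPM in wild-type, or 1.81 and 6.51 times background on average. Set against the median of the probes nearest in brightness (100 on each side) in the same library, it stood at 0.947, 0.863 and 0.896 times that median in null and 2.18, 1.95 and 1.79 times in wild-type. In wild-type mesenchyme the probe was thus far brighter than its peers, in null slightly dimmer, and the groups did not overlap. After matching, 17.8% of all probes had null libraries wholly below wild-type and 17.5% wholly above. The matched log2 difference was −1.18 (SE 0.0978, adjusted p = 6.28e-12). With signal contrast as a covariate it was −1.23 (adjusted p = 0.00291).

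The wild-type level of RTS0062148 was higher at E14.5 than at E13.5, by 1.15 on the matched log2 scale (SE 0.117, adjusted p = 8.48e-09). In null, too, RTS0062148 was higher at E14.5 on that scale, by 0.45 (SE 0.108, adjusted p = 0.00368 by edgeR), although its mean CPM was 54.6 at E14.5 and 54.7 at E13.5. At E13.5 it measured 70.1, 70.3 and 87.0 CPM in wild-type and 54.9, 56.3 and 52.8 CPM in null, and the matched log2 difference of −0.49 missed the threshold (SE 0.129, adjusted p = 0.999). The null libraries were lower than every wild-type library at that stage too. The difference between the stages was −0.70 (SE 0.161, adjusted p = 0.00682).

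RTS0071848 was second by p. It measured 40.6, 40.8 and 37.4 CPM in null and 122, 97.6 and 84.1 CPM in wild-type, which is near background in null (1.31 times) and 3.66 times background in wild-type. Relative to its peers it stood at 0.710, 0.751 and 0.675 times in null and 1.67, 1.41 and 1.17 times in wild-type. The groups were apart by a matched log2 difference of −0.95 (SE 0.106, adjusted p = 3.03e-08). After subtraction of background the difference was −2.20 (limma, adjusted p = 4.03e-06).

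The lowest p-values on the higher side belonged to 2 of the very brightest probes, which were higher in null relative to the trend without being higher in CPM. RTS0067780 measured 5949, 2688 and 4471 CPM in null and 6435, 5818 and 6120 CPM in wild-type, and RTS0064052 measured 6886, 3130 and 5093 CPM against 7553, 7143 and 7142 CPM. By TMM neither passed the test (log2 −0.49, adjusted p = 0.306, and −0.53, adjusted p = 0.269), and null replicate 2 was the lowest library in both. Relative to the median of the brightest 104 probes, RTS0067780 stood at 14.7, 10.9 and 14.1 times in null and 9.26, 9.48 and 9.38 times in wild-type. RTS0064052 stood at 16.9, 12.7 and 15.6 times against 10.8, 11.6 and 10.9 times the median of 102. Relative to these bright probes, then, all null libraries lay above all wild-type libraries. The medians used, 246 to 701 CPM in the E14.5 libraries, were far below the 2 probes. The ratios therefore show a smaller fall than in dimmer probes, not a comparison at equal brightness.

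The size of this difference depended on how the trend was drawn at the bright end, where few probes define it. By lowess the matched log2 difference was 1.77 for RTS0067780 (SE 0.183, adjusted p = 6.54e-09) and 1.78 for RTS0064052 (SE 0.186, adjusted p = 6.54e-09). The lowess curve lay below most of the brightest probes, and with a running median over 100 probes on each side, chosen after seeing this, the differences were 0.68 (SE 0.154, adjusted p = 0.00151) and 0.63 (SE 0.156, adjusted p = 0.00341). On background-subtracted signal they were 0.56 and 0.50. Both calls were kept in each of the 20 alternatives run, with the size left between 0.50 and 2.40.

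The 100 brightest probes did not come down alike. Each averaged at least 349 CPM, all had a TMM log2 fold change below 0, from −2.49 to −0.07 with a median of −1.15, and 69 were called lower. The 25 of them with identifiers from RTS0067000 to RTS0067999, RTS0067780 included, had a median of −0.54 (from −0.76 to −0.27). The 19 from RTS0068000 to RTS0068999 had a median of −1.31 (from −2.05 to −0.91), and the 26 from RTS0075000 to RTS0075999 one of −1.29 (from −1.88 to −0.74). By lowess 47 of the 100 were called higher than the trend. With the running median, which is flat over these probes, 36 of the 100 were called higher and 17 lower. The identifier ranges were picked after these values were seen, so no test was made.

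With the running median as the trend, 3544 probes were called over the whole panel (17.6%), 1712 higher (8.49%) and 1832 lower (9.08%), of which 3366 were also called with lowess. The lower probes with the lowest p were again RTS0062148 and RTS0071848 (log2 −1.14 and −0.96). On the higher side they were RTS0079118 and RTS0080813. RTS0079118 measured 105, 112 and 110 CPM in null and 66.8, 70.0 and 76.1 CPM in wild-type, or 1.55, 1.76 and 1.72 times its peers in null and 0.656, 0.728 and 0.770 times in wild-type. It was 3.60 times background in null and 2.56 times in wild-type, with a log2 difference of 1.21 (SE 0.124, adjusted p = 8.92e-08).

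RTS0080813, also among the largest TMM differences, stood at 1.42, 1.42 and 1.52 times its peers in null and 0.718, 0.726 and 0.853 times in wild-type. Its log2 difference was 0.91 (SE 0.104, adjusted p = 8.92e-08). In both probes every null library lay above its peers and every wild-type library below them. Both calls ended with signal contrast as a covariate, at 0.66 (adjusted p = 0.215) and 0.75 (adjusted p = 0.09996), whereas RTS0062148 and RTS0071848 kept theirs.

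**Figure D4:**
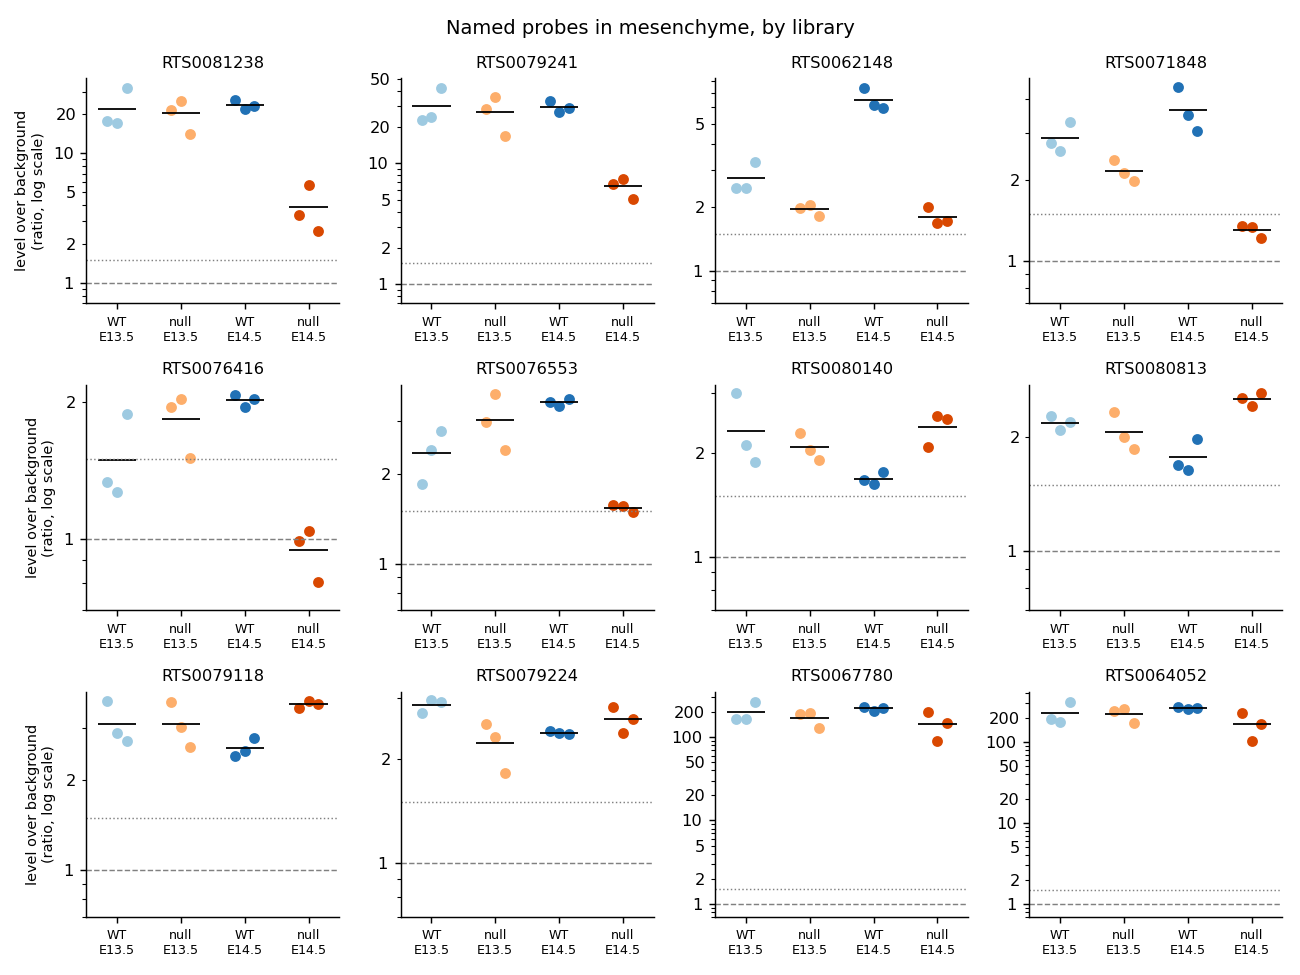
Level over background (ratio, log axis) of 12 named probes in the 12 mesenchyme libraries, each point 1 embryo and each bar the group mean, with dashed lines at background and dotted lines at 1.5 times background. RTS0062148 is highest in wild-type E14.5, RTS0076416 is at background in null E14.5, and RTS0067780 and RTS0064052 stay at or above 88.8 times background in every library.

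Calls were unevenly spread over the identifier series. Of the probes numbered RTS0079000 to RTS0080999, 826 of 1969 were higher than their peers (42.0%) and 24 lower, against 5.07% higher among all other probes, so that 9.76% of the panel held 47.2% of the higher calls. RTS0080140, RTS0080813, RTS0079118, RTS0079224 and RTS0080102, all called higher after matching, lie in this range. So does RTS0079241, which went the other way and was called lower (log2 −0.56). The block of 976 probes from RTS0079000 on had a median matched log2 difference of 0.30 at E14.5 and −0.05 at E13.5. The meaning of the numbering is not given in the sources used here, and the range was picked after the calls were seen.

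The level of that block also varied among E13.5 libraries. Its median deviation from peers was 0.14, 0.18 and 0.16 in null E14.5 replicates 1 to 3 and −0.18, −0.12 and −0.07 in wild-type E14.5. In wild-type E13.5 it was 0.13, 0.01 and −0.14 in replicates 1 to 3, whose shares of counts on the brightest 5% of probes were 18.9%, 20.1% and 26.3%. In null E13.5 it was 0.03, −0.08 and −0.07, with shares of 22.1%, 24.0% and 17.9%. The block was thus high where the share was low in E14.5 libraries and in wild-type E13.5, but not in null E13.5 replicate 3. With signal contrast as a covariate few probes stayed called anywhere on the panel. The higher calls left from RTS0079000 to RTS0080999 were RTS0079691, RTS0079692, RTS0079696 and RTS0079700. What part of the higher calls of the block goes with signal contrast was not tested beyond that fit. When each library's median over each block of 1000 numbers was removed along with brightness, an alternative added after seeing the data, 2345 probes were called, 964 higher and 1381 lower, 1961 of them among the 3558.

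**Figure D5:**
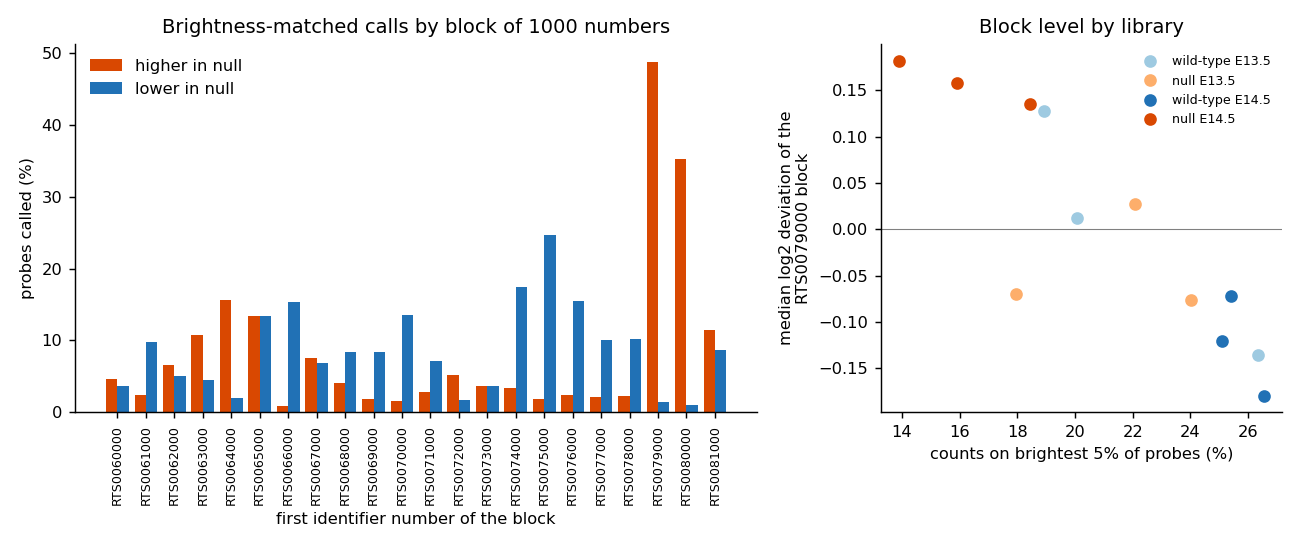
Left, percent of probes called higher (orange) or lower (blue) in null after brightness matching, by block of 1000 identifier numbers, with 48.8% higher in the RTS0079000 block and 35.2% in the next. Right, median log2 deviation of the RTS0079000 block from probes of equal brightness against the percent of counts on the brightest 5% of probes, 1 point per mesenchyme library, falling from 0.18 in the library with 13.9% to −0.18 in that with 26.6%.

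A day earlier, before fusion, no probe passed the test between the genotypes after matching: edgeR called 0 of 20175 with 939 at an unadjusted p under 0.05, DESeq2 called 0 with 768, and limma-voom called 0 with 1103. The 1749 probes higher at E14.5 had a median log2 difference of −0.04 at E13.5, with 38.4% above 0, and the 1809 lower probes one of 0.03, with 56.2% above 0. Over all probes 49.8% were above 0.

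The genotype difference itself differed between the stages in 920 of 20175 probes (4.56%), 496 with a higher null level at E14.5 relative to E13.5 (2.46%) and 424 with a lower one (2.10%). At E14.5, leaving out null replicate 3 gave 472 calls and leaving out wild-type replicate 2 gave 571. At E13.5, leaving out null replicate 2 gave 440 calls and replicate 3 gave 1410, and leaving out wild-type replicate 1, 2 or 3 gave 256, 332 and 1386. Thinned to the lowest total it was 324, and with identifier blocks removed 458.

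RTS0076416 and RTS0076553 led the probes whose null level was lower at the later stage alone. RTS0076416 measured 29.6, 31.5 and 24.7 CPM in null E14.5, at background (0.945 times), and 57.3, 54.4 and 56.1 CPM in wild-type E14.5. At E13.5 it was 54.1, 55.7 and 43.5 CPM in null and 37.8, 36.1 and 49.7 CPM in wild-type. The groups were thus apart at E14.5, with null below, and overlapped at E13.5, with a difference between the stages of −1.28 (SE 0.187, adjusted p = 8.69e-05).

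RTS0076553 measured 47.0, 47.3 and 45.5 CPM in null and 96.3, 94.3 and 98.6 CPM in wild-type at E14.5. At E13.5 it measured 83.0, 102 and 69.5 CPM in null and 52.5, 68.4 and 73.6 CPM in wild-type. The order of the genotypes was turned between the stages on average (−0.96, SE 0.156, adjusted p = 0.000254), although at E13.5 the groups overlapped and the difference did not pass (0.35, adjusted p = 0.999). The E14.5 libraries were tight in each genotype and far apart.

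On the other side were RTS0067780 (1.83, SE 0.254, adjusted p = 6.68e-05; 0.81, adjusted p = 0.0214, with the running median) and RTS0079224. RTS0079224 measured 85.0, 72.1 and 80.2 CPM in null and 66.8, 66.7 and 65.2 CPM in wild-type at E14.5, and 70.2, 63.5 and 52.8 CPM against 77.4, 84.3 and 77.7 CPM at E13.5. Null lay above wild-type at the later stage and below it at the earlier one in every library, with a difference of 1.10 (SE 0.160, adjusted p = 8.69e-05). At E14.5 the genotypes differed after matching (0.69, adjusted p = 4.04e-06 by edgeR) but not by TMM (0.25, adjusted p = 0.162). At E13.5 the matched difference did not pass (−0.41, adjusted p = 0.999). The calls of the 4 probes held in each of the 22 alternatives run for each, which did not include signal contrast as a covariate. In the matched E14.5 comparison that covariate left RTS0067780 called (log2 1.57, adjusted p = 0.0223 by edgeR). There RTS0079224 (0.66, adjusted p = 0.152), RTS0076416 (−0.72, adjusted p = 0.198) and RTS0076553 (−0.53, adjusted p = 0.307) lost their calls.

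In the epithelium of the same embryos most of these probes lay on the same side. In E14.5 MDE, where libraries were shallower and 14758 probes were tested, 87 probes differed after matching (0.590%). The 1612 of the mesenchyme's higher probes that could be tested there had a median log2 difference of 0.36, with 1450 above 0, and the 1533 lower ones had a median of −0.32, with 1320 below 0. All probes had a median of 0.01 and 7449 of 14758 above 0. Of these probes, 55 higher and 21 lower were called in MDE in the same direction. Null MDE replicate 2 differed in depth from the other E14.5 MDE libraries, with 2618342 counts against 175461 to 619233, and with 24.1 aligned reads behind each count against 2.07 to 2.21. Without that library, a setting chosen after seeing the data, 183 of 16067 probes tested were called in MDE (1.14%). The mesenchyme's higher probes then had a median of 0.39, with 1397 of 1639 above 0 and 105 called, and its lower ones a median of −0.36, with 1325 of 1619 below 0 and 51 called. The regions share embryos and signal contrast, so these figures are not independent of the mesenchyme result.

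The genotype effect differed between mesenchyme and epithelium in 56 of 20175 probes (0.278%; edgeR with the embryo as a block), 42 with a higher null effect in mesenchyme (0.208%) and 14 with a lower one (0.0694%). It was 45 without null embryo 2, whose MDE library stood out in depth, 30, 35 and 34 without wild-type embryos 1, 2 and 3, 18 without the embryo block, and 28 by DESeq2. Thinned to the lowest total it was 0 of 6114 tested, with 326 at an unadjusted p under 0.05.

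RTS0068500 and RTS0070870 were lower in null mesenchyme than the epithelial effect. RTS0068500 measured 42.9, 39.9 and 45.7 CPM in null MDM, near background (1.42 times), and 127, 253 and 184 CPM in wild-type MDM. In MDE it measured 43.5, 44.5 and 41.7 CPM in null and 43.6, 52.7 and 79.3 CPM in wild-type, and the difference between the regions was −1.78 (SE 0.256, adjusted p = 3.63e-08). Within the mesenchyme its matched log2 difference between the genotypes was −1.92 (SE 0.196, adjusted p = 7.91e-05 by edgeR). The probe was brightest in wild-type mesenchyme. In wild-type mesenchyme it was also higher at E14.5 than at E13.5, by 2.44 on the matched log2 scale (SE 0.268, adjusted p = 0.00180).

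RTS0070870 measured 56.2, 63.6 and 52.8 CPM in null MDM and 199, 146 and 124 CPM in wild-type MDM, or 1.90 and 5.64 times background. In MDE it was near background in both genotypes, at 41.7 ± 8.30 and 34.2 ± 8.29 CPM (SD, n = 3 each). The difference between the regions was −1.66 (SE 0.312, adjusted p = 0.000202), and without the embryo block it was −1.74 (SE 0.483), which was not called (adjusted p = 0.40016). In the mesenchyme the genotypes did not overlap, in the epithelium they did.

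RTS0080102 and RTS0063083 were low in mesenchyme and bright in wild-type epithelium. RTS0080102 measured 52.3, 58.3 and 56.4 CPM in null MDM and 42.8, 37.5 and 41.9 CPM in wild-type MDM, a matched log2 difference of 0.55 (SE 0.109, adjusted p = 0.000318). In MDE it measured 68.3, 84.2 and 81.8 CPM in null and 268, 176 and 211 CPM in wild-type. The null libraries were thus higher in the mesenchyme and lower in the epithelium, with a difference between the regions of 1.89 (SE 0.197, adjusted p = 4.48e-15).

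RTS0063083 measured 42.6, 45.7 and 45.8 CPM in null MDM and 36.7, 41.8 and 39.8 CPM in wild-type MDM, near background in both, with a matched difference that did not pass (0.18, adjusted p = 0.248). In MDE it measured 99.4, 69.7 and 103 CPM in null and 143, 274 and 264 CPM in wild-type, and the difference between the regions was 1.77 (SE 0.191, adjusted p = 2.48e-14). Its genotype difference lay in the epithelium, and the mesenchyme libraries held little signal of it. The calls of all 4 probes ended when counts were thinned to the lowest total (adjusted p from 0.625 to 0.776), where the differences were 1.47 (SE 0.507) for RTS0080102, 1.37 (SE 0.571) for RTS0063083, −1.83 (SE 0.628) for RTS0068500 and −1.97 (SE 0.605) for RTS0070870. Without null embryo 2 all 4 stayed called, at 1.91, 1.41, −1.62 and −1.93 in the same order. Signal contrast was not run as a covariate between the regions. In the matched E14.5 mesenchyme comparison by edgeR it ended the calls of RTS0080102, RTS0068500 and RTS0070870. RTS0080102 went from 0.55 (SE 0.109) to 0.12 (SE 0.203, adjusted p = 0.903). RTS0070870 went from −0.81 (SE 0.180) to −0.67 (SE 0.425, adjusted p = 0.673). RTS0068500 went from −1.92 (SE 0.196) to −2.01 (SE 0.537, adjusted p = 0.281), so its difference did not shrink and its SE grew.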

How the data were processed

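The authors deposited counts per probe, which are whole numbers without normalisation. Per the file headers, GeoMx NGS Pipeline version 2.3.5 made them. A probe missing from a file was given 0. The submitters' processing notes name GRCm38.p6. The probes and lists were chosen with earlier results of these data known.

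The test was edgeR 4.0.16 under R 4.3.3 (filterByExpr, minimum count 10 and minimum total 15, robust quasi-likelihood, Benjamini-Hochberg over all probes tested) in 1 fit of the 12 MDM libraries, and for the regions in 1 fit of all 24 with the embryo as a block. Levels were TMM-scaled within MDM and within MDE separately. Brightness matching removed a lowess curve (span 0.3, prior count 2) per library through offsets. SE is the log2 difference over the square root of F. DESeq2 1.42.0, limma 3.58.1, scipy 1.17.1, numpy 2.4.6 and matplotlib 3.10.9 were also used. Fits were also run on simulated counts with planted changes and a fixed spread. That setting is simpler than these data, so it does not check the calls given here.

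Per comparison at most 2 probes higher and 2 lower are named. For TMM these have the largest log2 fold change among calls with both means at least 1.5 times background. Otherwise they have the lowest p among calls whose highest group mean is at least 1.5 times background. RTS0064950 is an exception, chosen after its values were seen. Planned lists of Wnt, Hox and matrix genes and cell type markers were not used here, since no probe was named. No pair of libraries was identical, and within each E14.5 MDM group every pair differed by more than sampling noise (chi-square per degree of freedom from 1.16 to 7.16).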

Additional observations from a re-analysis of the deposited data

Results flagged for a closer look

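The genotype difference in mesenchyme differed between E13.5 and E14.5, by a test of the difference itself, in 920 probes. The 4 probes named for it were RTS0067780 (1.83), RTS0079224 (1.10), RTS0076416 (−1.28) and RTS0076553 (−0.96), in log2 units of the E14.5 minus the E13.5 difference between null and wild-type. It differed between mesenchyme and epithelium at E14.5, again by a test of the difference, in 56 probes. The 4 named for it were RTS0080102 (1.89), RTS0063083 (1.77), RTS0068500 (−1.78) and RTS0070870 (−1.66), in log2 units of the mesenchymal minus the epithelial difference. Groups of 3 libraries are too small for a check of single outlying libraries.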

How the results depend on the processing

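Under the alternatives run, no named probe changed sign in the comparison it was named for, and neither did the contrast difference. By TMM, for which they were not named, RTS0067780 and RTS0064052 went from −0.49 and −0.53 to 0.60 and 0.58 with the contrast covariate, called in neither setting. The split of calls turned. By TMM 2443 were higher and 3558 lower, against 5155 and 2717 with upper-quartile scaling. After matching 1749 were higher and 1809 lower, against 508 and 426 thinned and 42 and 12 with the contrast covariate. The TMM count of 6001 was 2981 by limma-voom, 2359 with thinned counts, 5 with signal contrast as a covariate, and 3966 to 6019 when 1 library was left out. The matched count of 3558 was 934 thinned, 54 with the covariate, 2229 of 7820 tested on background-subtracted signal, 2345 with identifier blocks removed, and 1867 to 3324 without 1 library. With the running median as the trend 3544 became 963 thinned, 33 with the covariate, and 1851 to 3289 without 1 library. The stage count of 920 was 324 thinned, 458 with identifier blocks removed and 256 to 1410 without 1 library. The region count of 56 was 28 by DESeq2, 0 thinned, 18 without the embryo block and 30 to 58 without 1 embryo. The cause of these shifts was not tested. The contrast difference of −9.61 points ranged from −10.8 to −8.53 without 1 library. Filters at 20 counts or none, trend spans of 0.1 and 0.7 and brightness taken from E13.5 left every count they were run on within 1.5 times. Of the 331 values computed for named probes, 320 kept their call and 11 lost it. The 331 do not include the contrast covariate for the stage and region calls, where it was not run. Among 91 alternative values of the counts and the contrast difference, 35 were counts that moved by more than 1.5 times.

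Same-numbered null and wild-type libraries deviated together weakly (correlations of 0.15, 0.04 and 0.02 at E14.5). Between MDM and MDE of the same E14.5 embryos the correlations were 0.04, 0.02 and 0.02 in wild-type and 0.21, 0.38 and 0.12 in null. Libraries that share an embryo can thus correlate as weakly, so these values cannot show whether the numbers pair the genotypes. With the replicate number as a block 5826 probes passed by TMM, 3665 matched, 3654 with the running median and 966 between stages, and no named call changed. Depth limits the epithelium most. With 3 embryos a group, signal contrast and genotype cannot be told apart at E14.5.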

Other observations

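Lower calls were unevenly spread over the identifier series too. The block of 979 probes from RTS0075000 on had 24.7% lower than their peers and 1.84% higher, and its median deviation was −0.11, −0.09 and −0.11 in null E14.5 replicates 1 to 3 against 0.08, 0.06 and 0.04 in wild-type. The block from RTS0074000 on had 17.4% lower and that from RTS0076000 on 15.4%. The block from RTS0064000 on had 15.7% higher and 2.03% lower. In E14.5 epithelium the medians of the RTS0075000 and RTS0079000 blocks were −0.21 and 0.29, and at E13.5 in mesenchyme 0.00 and −0.05. These blocks were picked after the values were seen, and no test was made.

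With signal contrast as a covariate and TMM scaling, 5 probes differed between null and wild-type E14.5 mesenchyme, 4 of them lower in null. RTS0062148 (log2 −1.35, SE 0.224, adjusted p = 0.00202 by edgeR) and RTS0071848 (−1.16, SE 0.224, adjusted p = 0.0254) were among the 4. RTS0064950 was the 1 higher probe (1.01, SE 0.212, adjusted p = 0.0480).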
